A study of Mus musculus with 8 samples.

Results

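RNA of the mitochondrial fusion and fission machinery was examined in brown adipose tissue (BAT) of mice with and without a deletion of HuR in adipocytes. The 10 genes were chosen by symbol, and all 10 were found among the 33641 genes in the files, with 64 transcripts between them. They were the fusion GTPases *Mfn1*, *Mfn2* and *Opa1*, the proteases *Oma1* and *Yme1l1* that cut OPA1, and the fission genes *Dnm1l*, *Fis1*, *Mff*, *Mief1* and *Mief2*. Mitochondria fuse when mitofusins join the outer membranes and OPA1 joins the inner ones, and OPA1 loses this function when OMA1 cuts its long forms. They divide when DRP1, the product of *Dnm1l*, is drawn from the cytosol to adaptors on the outer membrane and constricts it. In brown adipocytes, fission is known to accompany adrenergic stimulation and heat production.

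Libraries were made from interscapular BAT of C57BL/6 mice aged 28 weeks, with 1 library per animal. The 3 control libraries (A7, A8 and A12) carry the label wild-type, and per the study's methods such littermates may carry either the Cre transgene or floxed alleles but not the deleting combination. The 5 libraries labelled HuR KO (A24, A25, A26, A29 and A31) come from *Adipo-HuR-/-* mice, in which Cre driven by the adiponectin promoter deletes floxed *Elavl1* in adipocytes, while other cells of the tissue keep the gene. A figure legend of the study gives 5 control and 3 *Adipo-HuR-/-* samples of BAT, the reverse of these numbers. Groups here follow the labels, on which every direction rests. Sex and diet of these 8 animals are not in the labels. Estimated counts totalled 60622522 (A7), 51751002 (A8) and 50673814 (A12). They totalled 67498055 (A26), 58727739 (A31), 50893173 (A29), 18264754 (A24) and 17558090 (A25), so that A24 and A25 were the shallowest. The 10 genes held 13502 counts in A24, the fewest, and 64364 in A26, the most.

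The targeted gene was read first. *Elavl1*, which encodes HuR (chromosome 8, 4285382 to 4325413, minus strand, GRCm38), had 50.6 CPM (A7), 49.2 (A12) and 48.0 (A8), where CPM are counts scaled to a common library total with edgeR's TMM method. Libraries labelled HuR KO had 61.9 CPM (A24), 61.3 (A29), 61.2 (A31), 47.3 (A25) and 43.4 (A26). With overlapping groups, the total of this gene was thus not lower under the HuR KO label. The log2 fold change was 0.16 (SE 0.162, adjusted p = 0.667 by the quasi-likelihood test of edgeR after Benjamini-Hochberg adjustment), and 0.11 without A24. It was 0.38 with scaling by total counts only, and 0.46 with the most abundant transcript of each gene in place of the total. The total adds all exons and all cell types and does not resolve the deleted part. Its transcript *Elavl1-201*, with 5743 bases and named after its values were seen, took 34.4% (A8), 25.2% (A7) and 20.6% (A12) of the gene's count. Libraries labelled HuR KO had shares of 11.7% (A31), 11.1% (A26), 9.22% (A25), 9.05% (A29) and 6.69% (A24), all below the controls. Such shares were free of overlap for 5.32% of 16496 over all genes tested. As a level, *Elavl1-201* had a log2 fold change of −1.39 (SE 0.271) and an adjusted p of 0.227 over all transcripts by edgeR's quasi-likelihood test. Most other counts went to *Elavl1-204* with 2317 bases, where it was 0.41 (SE 0.187) with an adjusted p of 0.643 by the same test. This share separates the labelled groups, the total does not, and the part of the deletion in either was not tested.

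Markers of cell types also differed between libraries, and some of them went with the label. The 15 skeletal muscle markers summed to 4012 CPM in A7, 2665 in A8 and 463 in A31, led by *Myh4*. The other libraries had 59.2 CPM in A12, 51.5 in A24, 33.4 in A25, 44.9 in A26 and 47.3 in A29. All 15 were lower under the HuR KO label with TMM and with total counts only, and 12 had an unadjusted p under 0.05, against 17.0% of all genes tested. *Myh7* and *Myl1* had an adjusted p of 0.0474 each by edgeR's quasi-likelihood test, the only 2 of the list at or under 0.05. At this level and a fold change of at least 1.5, the test called 0.707% of all genes. Of the 15 markers, edgeR's likelihood ratio test and DESeq2's Wald test called 4 each, against 4.41% and 5.54% of all genes. With limma voom and quality weights 0 were called, against 1.06%. The high levels of A7 and A8 were not shared by A12, the third control. *Atp2a1* of this list, which the study names among the genes reduced in *Adipo-HuR-/-* mice, had a log2 fold change of −4.42 (SE 1.98, adjusted p = 0.290 by edgeR's quasi-likelihood test). The study's direction for this gene is thus the one the labels give, although the groups overlapped. Of the muscle markers 5 were at 0 in A24, which allows up to 0.169 CPM each at 3 counts, and 4 were at 0 in A25, which allows up to 0.142 CPM. Adipocyte markers, 10 genes led by *Fabp4* with *Ucp1* and *Lep* among them, summed to 32582 CPM (A8), 22977 (A12) and 15772 (A7). They summed to between 14978 CPM in A25 and 27506 in A24 with a HuR KO label. Of these 10, 7 were lower under this label with TMM and 2 with total counts only. *Lep* alone had an unadjusted p under 0.05 with TMM. Its log2 fold changes were −1.22 with TMM and −1.04 with total counts only. Summed markers lay between 31.7 CPM (A8) and 109 (A12) for macrophages, between 291 (A24) and 492 (A29) for endothelium, between 113 (A26) and 465 (A12) for fibroblasts, and between 36.2 (A29) and 60.2 (A7) for Schwann cells and neurons. All 6 endothelial markers were higher under the HuR KO label under both scalings, with 0 at an unadjusted p under 0.05. All 6 fibroblast markers were lower under this label with TMM but 4 of 6 with total counts only, and *Col3a1* alone of them had an unadjusted p under 0.05, with log2 fold changes of −1.09 and −0.90 under these scalings. None of the adipocyte, macrophage, endothelial or fibroblast markers was at 0 in any library. *Snap25* of the Schwann and neuron list was at 0 in most libraries. In whole tissue, fewer cells of a type and less RNA per cell cannot be told apart.

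Short and long transcripts were also spread unevenly over the libraries. For 1351 genes whose main transcript had up to 1000 bases, the median log2 CPM relative to each gene's mean was 0.37 in A8 and 0.41 in A24. It was −0.29 in A7, −0.27 in A12 and −0.23 in A26, and 0.04 in A25, 0.05 in A29 and 0.00 in A31. For 2628 genes with over 5000 bases it was −0.22 in A8 and −0.40 in A24, against 0.21 in A7, 0.22 in A12 and 0.18 in A26. A control library and a library labelled HuR KO therefore stood together at the same end. The part of these differences in the values below was not tested beyond fits without the libraries concerned and a fit with the length trend removed.

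None of the 10 fusion and fission genes was past the threshold, an adjusted p of at most 0.05 and a fold change of at least 1.5, in edgeR's quasi-likelihood test over 14851 genes, where 105 genes (0.707%) were past it. None had an unadjusted p under 0.05 either, against 17.0% of all genes tested. The count was also 0 of 10 in edgeR's likelihood ratio test, DESeq2's Wald test and limma voom with quality weights, with none at an unadjusted p under 0.05. Over all genes these tools called 4.41%, 5.54% and 1.06%, respectively. For none of the 10 were the groups free of overlap, as they were for 11.5% of all genes. At this background, a count of 0 among 10 genes does not set them apart.

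The number of genes past the threshold over the whole table depended on single libraries. Against 105 with all libraries, it was 13 without A7, 190 without A12, 15 without A25, 10 without A26, 14 without A29 and 17 without A31. It moved less without A8, to 145, and without A24, to 86. Without both shallow libraries, A24 and A25, it was 5, and without the libraries with muscle markers, A7, A8 and A31, it was 4, with A12 as the only control. The count of fusion and fission genes was 0 in each of these fits.

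The differences were small with TMM, where the 95% interval of each of the 10 genes spanned 0. Under total counts only, *Mief2* had a log2 fold change of 0.57 and an unadjusted p of 0.0290 by edgeR's quasi-likelihood test. With TMM scaling, 9 of the 10 genes were lower under the HuR KO label and 1 was higher, whereas with scaling by total counts only all 10 were higher. Their median log2 fold change was −0.12 with TMM, beside 0.00 for all genes tested, and 0.10 with total counts, beside 0.23. The choice of scaling moved the median of all genes by 0.23. Among the 10 genes, only *Mief2* had a log2 fold change of larger size with TMM. The median absolute log2 fold change was 0.13 for the 10 genes and 0.27 for all genes tested. The TMM 95% interval lay within a 1.5-fold change in either direction for 8 of the 10, the exceptions being *Yme1l1* and *Mief2*. This count was not made with total counts only.

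**Figure D1:**
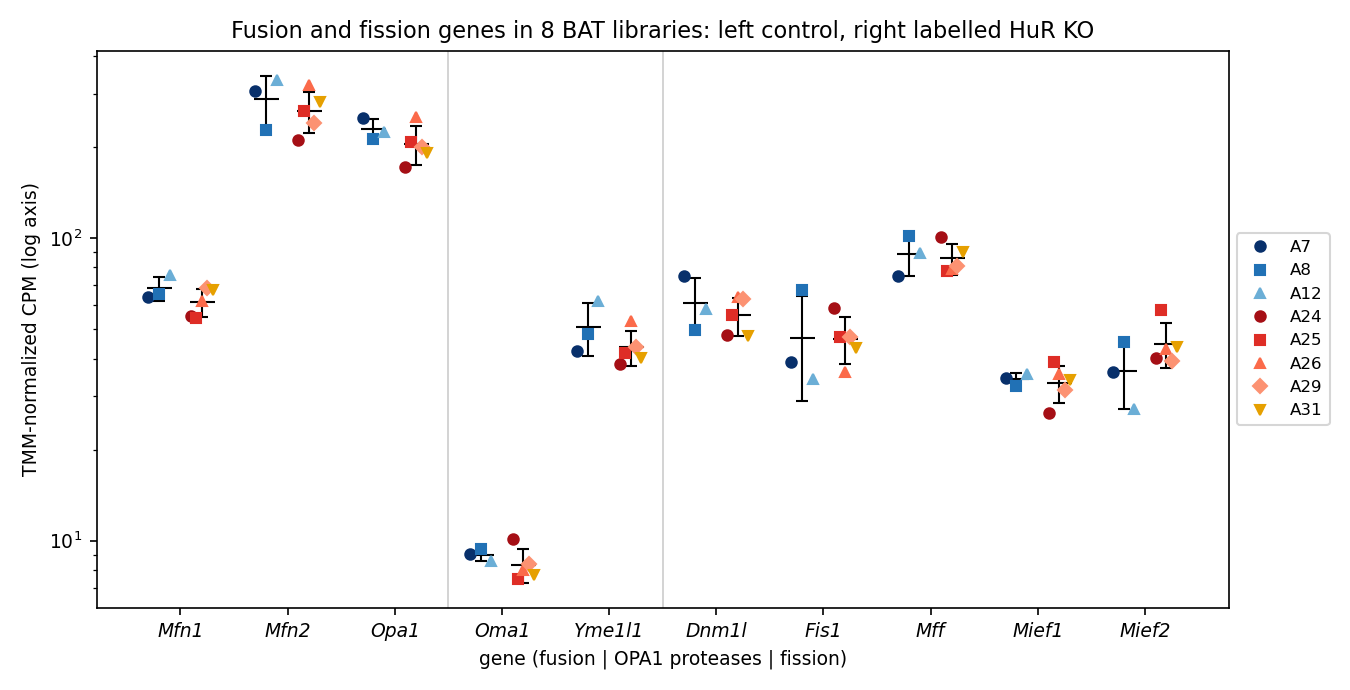
TMM-normalized CPM (log axis) of the 10 genes in each of 8 BAT libraries, with control libraries on the left and libraries labelled HuR KO on the right of each gene; bars are means with SD. The groups overlap for all 10 genes.

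Per base of transcript, the 10 genes spanned a wide range of levels. TPM, estimated counts per base of transcript scaled to a common total, averaged 92.8 ± 11.7 for *Mff* and 93.6 ± 27.2 for *Mfn2* (SD over 8 libraries). *Fis1* followed with 79.8 ± 14.4 TPM and *Opa1* with 70.6 ± 22.6. Neighbours among these 4 did not differ in level beyond their spread, as *Mff* was above *Mfn2* in 4 of 8 libraries, *Mfn2* above *Fis1* in 5 and *Fis1* above *Opa1* in 5, whereas *Mfn2* was above *Opa1* in 8 of 8. *Opa1* was above *Mfn1*, at 33.7 ± 10.6 TPM, in 8 of 8. *Mief2* averaged 28.1 ± 11.97 TPM and *Dnm1l* 20.7 ± 6.16. *Yme1l1* averaged 15.4 ± 2.82 TPM, and from *Mfn1* down to it each gene was above the next in 6 of 8 libraries. *Mief1* averaged 9.49 ± 2.72 TPM and was below *Yme1l1* in 8 of 8. *Oma1*, the lowest, averaged 6.25 ± 0.928 TPM and was below *Mief1* in 7 of 8. The adaptor *Mff* thus stood above the GTPase *Dnm1l* it recruits, and *Mfn2* above its paralog *Mfn1* in every library.

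Among the fusion genes, *Mfn2* (chromosome 4, 147873599 to 147904704, minus strand) encodes the mitofusin that also tethers mitochondria to the endoplasmic reticulum. It had 332 CPM (A12), 307 (A7) and 228 (A8). In the libraries labelled HuR KO it had 321 CPM (A26), 281 (A31), 264 (A25), 240 (A29) and 212 (A24). The lowest values of both groups were in A24 and A8, and all but A24 of the libraries labelled HuR KO lay within the control range. The means were 289 ± 54.2 CPM (SD, n = 3) and 263 ± 41.4 CPM (SD, n = 5). Its log2 fold change was −0.13 with TMM (SE 0.188, adjusted p = 0.768 by edgeR's quasi-likelihood test), −0.27 without A8, −0.21 without A26, −0.07 without A24, −0.02 without A12 and 0.08 with total counts only. This fold change was −0.05 without A24 and A25, and −0.36 without A7, A8 and A31, which leaves 1 control.

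*Mfn1* (chromosome 3, 32529465 to 32579239, plus strand), the other mitofusin, had 75.5 CPM (A12), 65.6 (A8) and 64.0 (A7). The libraries labelled HuR KO had 68.5 CPM (A29), 67.5 (A31), 61.8 (A26), 55.4 (A24) and 54.7 (A25). The shallow libraries A24 and A25 were the lowest, and A29 and A31 lay within the control range. Between the groups the log2 fold change was −0.15 with TMM (SE 0.142, 95% interval −0.47 to 0.16, adjusted p = 0.640 by edgeR's quasi-likelihood test), −0.07 without A12 and 0.08 with total counts only. This fold change was −0.06 without A24 and A25, and −0.33 without A7, A8 and A31, which leaves 1 control. Of the 31-base words of the main *Mfn1* transcript 4.46% also occur in transcripts of other genes, so a small part of the gene's count is uncertain. The ratio of *Mfn2* to *Mfn1* in TPM was 3.01 (A12), 2.68 (A8) and 2.48 (A7). It was 3.28 (A24), 3.06 (A26), 2.96 (A25), 2.75 (A31) and 2.30 (A29), on both sides of the control range.

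*Opa1* (chromosome 16, 29579334 to 29654884, plus strand) encodes the GTPase of inner membrane fusion and of cristae shape. It had 250 CPM (A7), 224 (A12) and 212 (A8), with a mean of 229 ± 19.1 (SD, n = 3). With a HuR KO label it had 252 CPM (A26), 208 (A25), 200 (A29), 191 (A31) and 171 (A24), with a mean of 205 ± 29.9 (SD, n = 5). Of these 5 libraries 4 lay below every control, and A26 lay above every control. The log2 fold change was −0.16 with TMM (SE 0.163, 95% interval −0.52 to 0.20, adjusted p = 0.666 by edgeR's quasi-likelihood test). It was −0.10 without A7, −0.25 without A26 and 0.06 with total counts only. Taken from the most abundant transcript of each gene, it was −0.27, with an adjusted p of 0.435 by the same test.

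Of the proteases that cut OPA1, *Yme1l1* (chromosome 2, 23156369 to 23199260, plus strand) encodes the i-AAA protease of the inner membrane. It had 62.1 CPM (A12), 48.3 (A8) and 42.4 (A7). It had 53.4 CPM (A26), 43.8 (A29), 41.8 (A25), 40.2 (A31) and 38.5 (A24) under the HuR KO label. A12 was the highest library, and 3 of the 5 libraries labelled HuR KO were below every control. Its log2 fold change was −0.23 with TMM (SE 0.169, 95% interval −0.60 to 0.15, adjusted p = 0.544 by edgeR's quasi-likelihood test), −0.34 without A7, −0.06 without A12 and 0.0024 with total counts only. With the muscle marker score as a covariate it had the lowest adjusted p of the 10 genes, 0.413, with an unadjusted p under 0.05, and its adjusted p lay between 0.405 and 0.996 over all alternatives. The log2 fold change was −0.42 with this covariate and −0.49 without A7, A8 and A31, which leaves 1 control.

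*Oma1* (chromosome 4, 103313812 to 103371868, plus strand) encodes the stress-activated metalloprotease that cuts OPA1. It had 9.39 CPM (A8), 9.04 (A7) and 8.57 (A12). Under the HuR KO label the values were 10.2 CPM (A24), 8.39 (A29), 8.03 (A26), 7.71 (A31) and 7.45 (A25). A24 was above every control and the other 4 were below every control. Between the groups the log2 fold change was −0.11 with TMM (SE 0.160, 95% interval −0.47 to 0.24, adjusted p = 0.776 by edgeR's quasi-likelihood test), −0.20 without A24, −0.07 without A8, −0.01 without A7, A8 and A31, and 0.11 with total counts only.

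Among the fission genes, *Dnm1l* (chromosome 16, 16312230 to 16358959, minus strand) had 74.7 CPM (A7), 58.4 (A12) and 49.8 (A8). Its values under the HuR KO label were 63.9 CPM (A26), 62.8 (A29), 55.7 (A25), 47.8 (A24) and 47.4 (A31). A7 was the highest library, and A24 and A31 were just below the lowest control. The log2 fold change was −0.14 with TMM (SE 0.177, 95% interval −0.53 to 0.26, adjusted p = 0.750 by edgeR's quasi-likelihood test), 0.04 without A7, −0.26 without A8, −0.09 without A31 and 0.07 with total counts only. Its main transcript shares 12.4% of its 31-base words with other genes, most of them with *Gm13719* (7.63%), and its exons overlap 243 bases of the antisense gene *Gm49521*. Whether the counting used strand is not given in the sources used here, so its count is uncertain to that extent.

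*Mff* (chromosome 1, 82724890 to 82752394, plus strand) encodes the main outer membrane adaptor for DRP1. It had 102 CPM (A8), 89.1 (A12) and 74.8 (A7). From high to low, the libraries labelled HuR KO had 101 CPM (A24), 90.3 (A31), 80.7 (A29), 78.8 (A26) and 77.8 (A25). All 5 lay within the control range, with A8 and A24 the highest of their groups. Its log2 fold change was −0.05 with TMM (SE 0.157, 95% interval −0.40 to 0.30, adjusted p = 0.911 by edgeR's quasi-likelihood test), 0.07 without A8 and 0.20 with total counts only. Its exons overlap 195 bases of *C430014B12Rik* on the other strand, and its main transcript shares 7.18% of its 31-base words with that gene.

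*Fis1* (chromosome 5, 136953275 to 136966234, plus strand) encodes a tail-anchored outer membrane protein that recruits fission and mitophagy factors. It had 67.2 CPM (A8), 38.9 (A7) and 34.4 (A12). Libraries with the HuR KO label had 58.8 CPM (A24), 47.1 (A29), 47.0 (A25), 43.3 (A31) and 36.2 (A26). A8 and A24 were the highest of all libraries and A12 and A26 the lowest, so that each group held both ends. The means were 46.8 ± 17.8 CPM (SD, n = 3) and 46.5 ± 8.19 CPM (SD, n = 5). Between the groups the log2 fold change was −0.01 with TMM (SE 0.235, adjusted p = 0.986 by edgeR's quasi-likelihood test), 0.35 without A8, 0.07 without A26, 0.0053 without A31 and 0.27 with total counts only. Its adjusted p lay between 0.348 and 0.996 over all alternatives.

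The libraries where *Fis1* was highest were also those where short transcripts as a whole were high. Its main transcript has 786 bases, and its SD of log2 CPM over the 8 libraries, 0.33, was the largest of the 10 genes, beside a median of 0.21 for the 10 and 0.38 for all genes tested. Without A8 and A24, a comparison chosen after seeing the data, the log2 fold change of *Fis1* was 0.25. With each library's trend on transcript length removed, also chosen after seeing the data, it was −0.06. The part of transcript length in its values was not tested further.

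**Figure D2:**
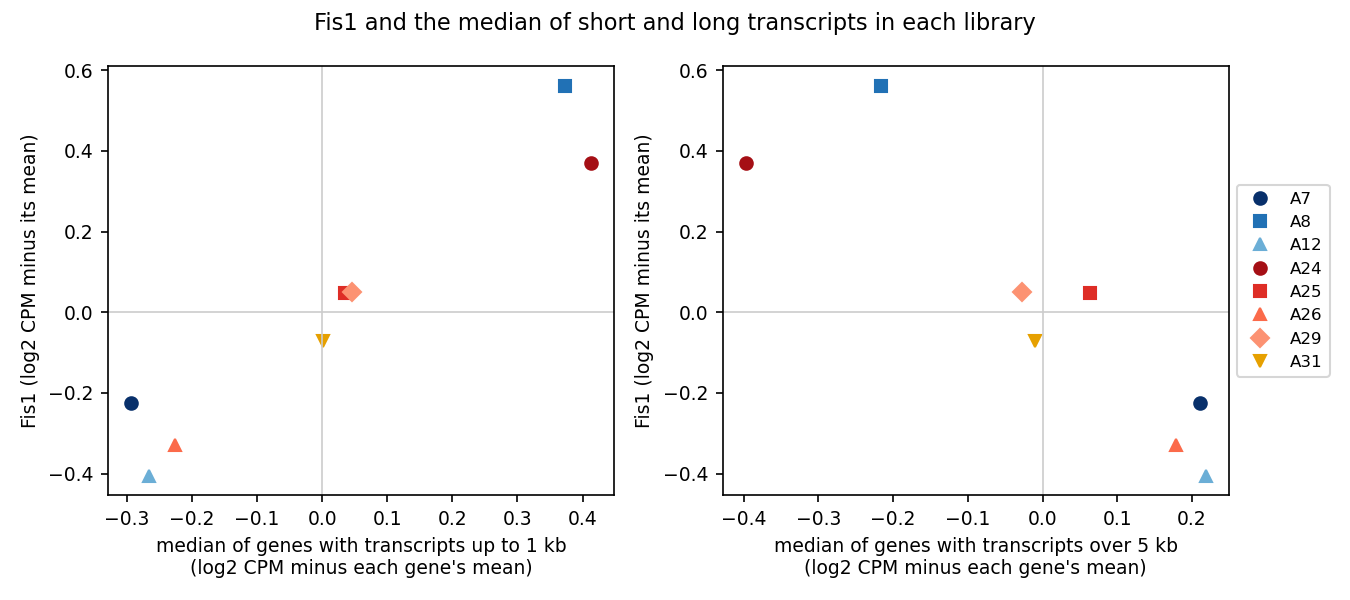
*Fis1* in each library (log2 CPM minus its mean over 8 libraries) against the median of the same quantity over 1351 genes with main transcripts of up to 1000 bases (left) and 2628 genes with over 5000 bases (right); each point is 1 library. A8 and A24 lie at the upper end and A7, A12 and A26 at the lower end of *Fis1* in both panels.

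*Mief2* (chromosome 11, 60728398 to 60732951, plus strand) encodes MiD49, an adaptor that binds DRP1 at the outer membrane. It had 45.4 CPM (A8), 36.2 (A7) and 27.4 (A12). The libraries labelled HuR KO had 57.8 CPM (A25), 43.6 (A31), 43.1 (A26), 40.2 (A24) and 39.1 (A29). All 5 exceeded A7 and A12, and only A25 exceeded A8. The means were 36.3 ± 9.01 CPM (SD, n = 3) and 44.8 ± 7.55 CPM (SD, n = 5). The log2 fold change was 0.30 with TMM (SE 0.197, 95% interval −0.13 to 0.74, adjusted p = 0.477 by edgeR's quasi-likelihood test) and 0.57 with total counts only. *Mief2* was thus the only gene of the 10 that was higher under both scalings. It was higher with each library left out, from 0.13 without A12 to 0.50 without A8. An unadjusted p under 0.05 was found in 4 settings, at 0.0290 with total counts only, 0.0337 without A8, 0.0424 without A7, A8 and A31, where the log2 fold change was 0.72, and, chosen after seeing the data, 0.0296 without A8 and A24. Its adjusted p over all alternatives reached from 0.169 (without A8 and A24) to 0.847 (without A12).

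*Mief1* (chromosome 15, 80234018 to 80253371, plus strand) encodes MiD51, the paralog of MiD49. It had 35.7 CPM (A12), 34.5 (A7) and 32.4 (A8). Values under the HuR KO label were 38.9 CPM (A25), 35.5 (A26), 34.0 (A31), 31.4 (A29) and 26.5 (A24). The control libraries lay close together, and A24 and A29 were below and A25 above all of them. Its log2 fold change was −0.04 with TMM (SE 0.150, 95% interval −0.37 to 0.29, adjusted p = 0.918 by edgeR's quasi-likelihood test), 0.02 without A24 and 0.19 with total counts only. Its exons overlap 213 bases of *AC140267.1*, a protein-coding gene on the same strand, and reads there cannot be assigned with certainty. The ratio of *Mief2* to *Mief1* in TPM was 3.18 (A8), 2.46 (A7) and 1.71 (A12). It was 3.85 (A25), 3.39 (A24), 3.11 (A31), 2.95 (A29) and 2.94 (A26), so that A8 lay among the libraries labelled HuR KO.

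**Figure D3:**
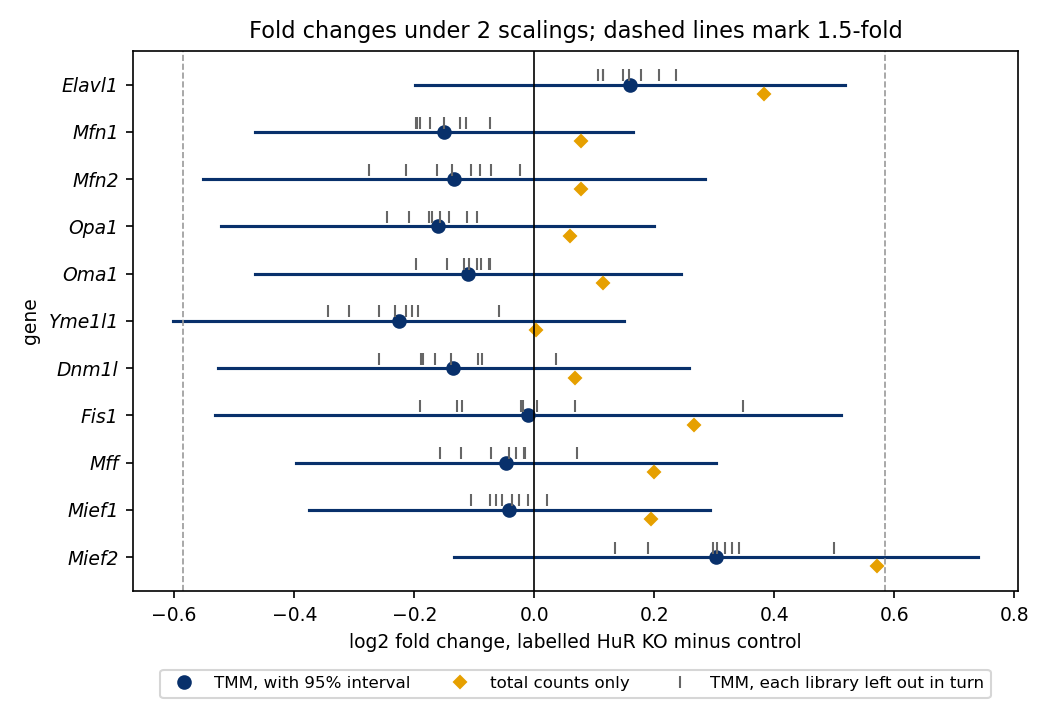
Log2 fold change (labelled HuR KO minus control) of *Elavl1* and the 10 genes, with TMM scaling (circles, with 95% intervals), with scaling by total counts only (diamonds) and with TMM and each library left out in turn (ticks). All intervals span 0, and 9 of the 10 genes change sign between the scalings.

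The balance of fusion to fission genes was summarised per library as the mean log2 TPM of *Mfn1*, *Mfn2* and *Opa1* minus that of the 5 fission genes. It was 1.22 (A12), 1.18 (A7) and 0.51 (A8). Under the HuR KO label the values were 1.11 (A26), 0.87 (A31), 0.80 (A29), 0.66 (A25) and 0.38 (A24). A8 and A24 were the lowest of their groups, A24 lay below the control range, and the other 4 lay within it. The means were 0.97 ± 0.40 (SD, n = 3) and 0.77 ± 0.27 (SD, n = 5), and the difference of −0.20 is a description without a test. It was −0.44 without A8, −0.29 without A26, −0.11 without A24, −0.10 without A7 and −0.08 without A12. A8 and A24 are also the libraries where short transcripts were high and long ones low, and the part of this in the balance was not tested.

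The genes closest to each of the 3 most variable fusion and fission genes were sought among all genes tested, by the root mean square difference of centred log2 CPM over the 8 libraries. Closest to *Fis1* were *Coq7*, an enzyme of ubiquinone synthesis, with a difference of 0.04, and *Ndufv3*, a complex I subunit, with 0.05. *Coq7* had 125 CPM in A8 and 103 in A24, its highest values, and 61.0 in A12, its lowest. Closest to *Mief2* were *Fam109a* with 0.09 and *Rexo4* with 0.12. Closest to *Mfn2* were *Nomo1* with 0.05 and *Usp8* with 0.06.

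Transcripts of the same gene were then compared, as estimated counts divide reads between overlapping transcripts and these values are less certain than gene totals. The quasi-likelihood test of edgeR called 0 of the 49 tested transcripts of the 10 genes, and 4 of all 41808 (0.00957%), and limma voom also called 0 of the 49. With a filter of at least 10 counts in every library, 25 of 20328 transcripts were past it and again 0 of these genes' transcripts. As so few transcripts were called over the whole table, these counts of 0 carry little weight. An unadjusted p under 0.05 was found for 6 of the 49, against 8.17% of all transcripts tested. *Opa1-205*, a nonsense-mediated decay transcript named after its values were seen, had the smallest of these. It had 0.592 CPM (A8), 0.336 (A12) and 0.272 (A7), and 1.61 (A29), 1.59 (A26), 1.55 (A25), 1.32 (A24) and 1.15 (A31). The log2 fold change of *Opa1-205* was 1.84 (SE 0.438, adjusted p = 0.304 by edgeR's quasi-likelihood test). This transcript made up 0.465% of the gene's count. *Opa1-206*, which made up 56.6%, was also among the 6. Its log2 fold change was −0.34 (SE 0.147, adjusted p = 0.612 by the same test).

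The share of each gene's count given to a transcript was tested for 14 transcripts of 6 genes, those with at least 10% of the count in genes with at least 2 such transcripts. In two-sided exact permutation tests over the 56 assignments of 3 and 5 libraries, 0 of the 14 had an adjusted p of at most 0.05, and 2 had an unadjusted p under 0.05, at 0.0357 the smallest that these assignments allow. At this smallest p, 10 of the 14 would be needed for any adjusted p to reach 0.05, so the count of 0 says little. Without overlap between the groups were 2 of the 14, *Fis1-202* and *Mfn2-201*, against 5.32% of 16496 transcript shares computed in the same way over all genes tested.

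*Fis1-202*, the longer of the main *Fis1* transcripts with 948 bases, took 17.1% (A7), 11.98% (A12) and 11.9% (A8) of the gene's count in controls. Its shares under the HuR KO label were 11.6% (A25), 8.26% (A29), 7.16% (A31), 6.86% (A26) and 6.10% (A24). A25 came close to A8, and all 5 lay below the controls. The means were 13.7% ± 2.94 (SD, n = 3) and 8.005% ± 2.18 (SD, n = 5), with an unadjusted two-sided exact permutation p of 0.0357 and an adjusted p of 0.250. Its coding length is 435 bases, against 456 for *Fis1-201*, which took most of the count.

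*Mfn2-201*, which shares its coding length of 2271 bases with *Mfn2-204*, took 17.2% (A8), 16.7% (A7) and 16.3% (A12) of the gene's count in controls. From high to low, the libraries labelled HuR KO took 15.2% (A31), 15.1% (A25), 12.96% (A26), 10.4% (A29) and 8.38% (A24). All 5 lay below the controls, and the spread was wider with this label (unadjusted two-sided exact permutation p = 0.0357, adjusted p = 0.250). *Mfn2-204* took the larger part of the gene, 81.0% ± 1.85 (SD, n = 3) and 85.3% ± 4.48 (SD, n = 5), with overlapping groups and a difference of 4.34 percentage points, or 2.88 without A24.

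*Opa1* was divided between 3 transcripts. *Opa1-206*, with 6230 bases, took 69.7% (A8), 61.4% (A12) and 52.9% (A7), and 76.2% (A24), 58.7% (A29), 54.8% (A31), 49.2% (A26) and 47.3% (A25). *Opa1-207*, with 3153 bases, took 33.6% (A7), 28.6% (A12) and 24.3% (A8), and 36.3% (A25), 31.9% (A31), 31.1% (A26), 29.5% (A29) and 14.1% (A24). The long transcript had its highest shares in A24 and A8, where the short one had its lowest, and the groups overlapped for both. The difference for *Opa1-206* was −4.11 percentage points with all libraries and 0.0551 without A8. That for *Opa1-207* was −0.251 percentage points with all libraries, 2.13 without A7 and 3.36 without A24.

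*Opa1-201* and *Opa1-207* each hold a coding exon that *Opa1-206* lacks, and the second of these is known to carry the site that YME1L1 cuts. Transcripts with the 54-base exon at chr16:29588823-29588876 took 9.57% ± 3.54 (SD, n = 3) of the *Opa1* count in controls and 13.7% ± 3.97 (SD, n = 5) with a HuR KO label, and the groups overlapped. For *Opa1-201* alone, the difference in share was 4.07 percentage points with all libraries and 2.58 without A8. Transcripts with the 111-base exon at chr16:29597586-29597696 took 30.0% ± 5.40 (SD, n = 3) and 29.2% ± 8.81 (SD, n = 5), also with overlap. Both exons are shown because they tell these coding transcripts apart. They were read from GENCODE M21 transcripts on GRCm38, plus strand, with the exon in capitals and 10 flanking bases of the transcript on each side in lower case.
54-base exon of Opa1-201: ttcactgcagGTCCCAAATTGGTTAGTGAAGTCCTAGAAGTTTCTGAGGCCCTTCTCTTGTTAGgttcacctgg
111-base exon of Opa1-207: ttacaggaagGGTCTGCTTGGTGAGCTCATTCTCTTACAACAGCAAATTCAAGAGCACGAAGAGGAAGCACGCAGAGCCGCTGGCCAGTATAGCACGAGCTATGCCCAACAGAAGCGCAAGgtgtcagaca

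*Mff* was divided between *Mff-202*, *Mff-208* and *Mff-201*. *Mff-202* took 33.1% (A7), 30.9% (A8) and 26.4% (A12), and 28.5% (A25), 25.3% (A24), 20.7% (A29), 20.5% (A26) and 20.3% (A31). A25 alone of the libraries labelled HuR KO lay above the lowest control, with means of 30.1% ± 3.39 (SD, n = 3) and 23.1% ± 3.69 (SD, n = 5), an unadjusted two-sided exact permutation p of 0.0714 and an adjusted p of 0.333. *Mff-208* took 28.2% ± 3.60 (SD, n = 3) and 30.99% ± 3.89 (SD, n = 5). *Mff-201* took 14.5% ± 2.64 (SD, n = 3) and 19.1% ± 6.49 (SD, n = 5), and its highest share, 27.8%, was in A24. The difference for *Mff-201* was 4.603 percentage points with all libraries and 2.44 without A24. For *Mff-208* it was 2.77 with all, 4.64 without A7, 1.05 without A8 and 4.41 without A24. *Mff-202*, which also has longer ends, differs in coding sequence from *Mff-208* by an exon of 159 bases at chr1:82741818-82741976 (plus strand), which is shown because it is the coding difference between them, in capitals with 10 flanking bases in lower case.
159-base exon of Mff-202: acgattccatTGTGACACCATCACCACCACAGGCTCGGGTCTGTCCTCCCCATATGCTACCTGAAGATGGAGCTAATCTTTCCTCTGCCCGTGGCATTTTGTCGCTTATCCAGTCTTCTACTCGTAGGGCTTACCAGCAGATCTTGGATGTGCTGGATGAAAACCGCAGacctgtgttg

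*Mfn1* was divided between *Mfn1-202* with 2789 bases and *Mfn1-201* with 4562, both with a coding length of 2223. *Mfn1-201* took 52.9% (A8), 39.5% (A12) and 30.6% (A7), and 64.8% (A24), 44.0% (A25), 43.4% (A29), 37.3% (A31) and 29.7% (A26). As for *Opa1*, the longer transcript had its highest shares in A24 and A8. The difference was 2.84 percentage points with all libraries, −2.36 without A7 and −2.40 without A24 (unadjusted two-sided exact permutation p = 0.821 with all). For *Mfn1-202* it was −1.96 percentage points with all libraries and 2.08 without A24.

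*Dnm1l* was given mostly to *Dnm1l-201*, with 79.6% ± 5.63 (SD, n = 3) in controls and 77.7% ± 4.49 (SD, n = 5) with a HuR KO label. *Dnm1l-203*, which holds a pair of further coding exons, took 16.97% ± 3.85 (SD, n = 3) and 15.2% ± 3.59 (SD, n = 5). Both sets of groups overlapped. The coding length of *Dnm1l-203* is nevertheless shorter, at 1761 bases against 2097 for *Dnm1l-201*. It also holds a 35-base exon outside the coding part that *Dnm1l-201* lacks. The difference was −1.88 percentage points for *Dnm1l-201* with all libraries and 1.33 without A12, and −1.73 for *Dnm1l-203* with all and 0.304 without A8. *Dnm1l-202*, with a 39-base coding exon at chr16:16342697-16342735 on the minus strand, took 6.19% (A7), 3.54% (A8) and 0.628% (A12). It took 9.83% (A29), 8.41% (A31), 6.32% (A24), 6.29% (A25) and 4.45% (A26) under the HuR KO label, with A7 inside this range. This exon, known for its use in neurons, is shown with 10 flanking bases in lower case.
39-base exon of Dnm1l-202: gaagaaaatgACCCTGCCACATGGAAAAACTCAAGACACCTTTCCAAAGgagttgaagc

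**Figure D4:**
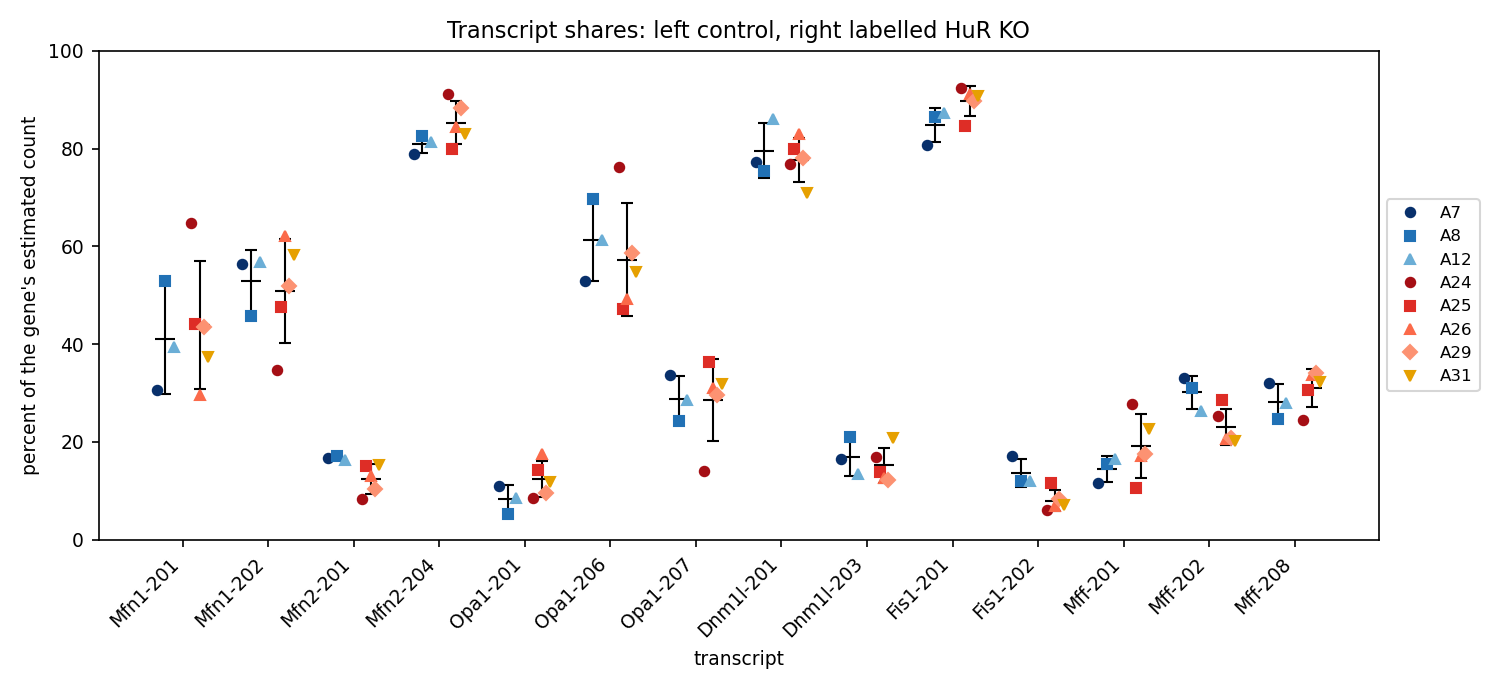
Share of the gene's estimated count (percent) given to each of 14 transcripts in the 8 libraries, with control libraries on the left and libraries labelled HuR KO on the right of each transcript; bars are means with SD. The groups do not overlap for *Fis1-202* and *Mfn2-201* and overlap for the other 12.

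HuR is known to bind AU-rich stretches, and the pentamer ATTTA was therefore counted on the transcript strand in the 3′UTR of each gene's most abundant coding transcript. It was found in 7 of the 10 genes, against 68.7% of 13317 genes with a 3′UTR of at least 100 bases. *Mief1* held 11 in 3236 bases and *Opa1* 9 in 3141, where genes with a 3′UTR of like length (within a factor of 1.2) held a median of 5. *Yme1l1* held 5, *Dnm1l* 4 and *Mfn2* 3, where the median at their lengths was 3, and *Mff* and *Mief2* held 1 each, where it was 1. *Fis1*, *Mfn1* and *Oma1*, with 3′UTRs of 220, 212 and 258 bases, held 0, as did most genes of these lengths. Other transcripts were not searched, among them *Mfn1-201*, which has 4562 bases and took 39.2% of the *Mfn1* count. For *Mfn1* the 0 thus holds for the 212 bases read and not for the whole gene. The counts describe letters in these windows and do not show binding.

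The rest of the mitochondrial dynamics machinery was followed in 7 lists with 49 genes in the files, of which 48 were tested and *Gdap1* had too few counts. None of the 48 was called by the quasi-likelihood test of edgeR or by limma voom, and 9 (18.8%) had an unadjusted p under 0.05, against 17.0% of all genes tested. With TMM 26 were higher and 22 lower under the HuR KO label, and with total counts only 33 were higher and 15 lower. The only gene past the threshold by other tools was *Inf2*, a formin that assembles actin at fission sites, with 1 of 48 (2.08%) called in DESeq2's Wald test, against 5.54% of all genes, and in edgeR's likelihood ratio test, against 4.41%.

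*Inf2* had 20.5 CPM (A7), 20.5 (A12) and 15.9 (A8). Libraries with the HuR KO label had 45.1 CPM (A26), 36.9 (A31), 36.8 (A29), 30.98 (A25) and 20.6 (A24). A24 lay just above the controls and the other 4 well above them. Its log2 fold change was 0.85 (SE 0.236, adjusted p = 0.112 by edgeR's quasi-likelihood test), and 0.98 with an adjusted p of 0.0480 without A24, where the range over all alternatives was 0.0162 to 0.463. Its adjusted p was 0.0162 in DESeq2's Wald test and 0.0403 in edgeR's likelihood ratio test. In the same list of other fission genes, *Mtfr1* had a log2 fold change of −0.31 (SE 0.133, adjusted p = 0.264 by edgeR's quasi-likelihood test), −0.21 without A12 and −0.08 with total counts only. It was −0.52 without A7, A8 and A31, which leaves 1 control.

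Calcineurin, the phosphatase that activates DRP1, had 4 genes tested, all 4 lower in the libraries labelled HuR KO under TMM and under total counts. Its catalytic subunit *Ppp3ca* had 37.8 CPM (A12), 32.1 (A8) and 30.4 (A7), and 24.3 (A29), 23.4 (A25), 23.3 (A24), 22.0 (A31) and 21.8 (A26). The 5 values lay close together and below every control. The log2 fold change was −0.54 (SE 0.129, adjusted p = 0.0818 by edgeR's quasi-likelihood test). *Ppp3cb* had a log2 fold change of −0.55 (SE 0.143, adjusted p = 0.0970 by the same test), also without overlap. Both were below a fold change of 1.5 and short of the threshold. Groups were free of overlap for these 2 of the 4 genes, against 11.5% of all genes tested. In DESeq2's Wald test the adjusted p was 0.00454 for *Ppp3ca* and 0.0107 for *Ppp3cb*, also below that fold change. With total counts only the log2 fold changes were −0.31 (adjusted p = 0.346) and −0.35 (adjusted p = 0.323) in edgeR's quasi-likelihood test. Over all alternatives no adjusted p of either gene was below its value in the Wald test or above that with total counts. The remaining genes of this list, *Ppp3cc* and *Ppp3r1*, had log2 fold changes of −0.28 and −0.24 with TMM. With total counts only these were close to 0, at −0.03 and −0.02.

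In the other lists the genes with the smallest p-values were likewise not past it. Among other fusion genes, *Miga2* had a log2 fold change of 0.46 (adjusted p = 0.251 by edgeR's quasi-likelihood test) and *Miga1* one of −0.59 (adjusted p = 0.383), −0.23 without A8 and −0.89 without A24. Of the prohibitins and m-AAA proteases that act on OPA1 processing, *Phb2* had 0.40 (adjusted p = 0.266) and *Spg7* −0.27 (adjusted p = 0.399). Of the cristae junction complex, *Immt* had −0.27 (adjusted p = 0.389) and *Chchd3* −0.34 (adjusted p = 0.417), the latter being −0.04 without A8. Among mitophagy and ubiquitin genes, *Bnip3* had −0.91 (adjusted p = 0.183) and *Bnip3l* −0.47 (adjusted p = 0.201), the latter being −0.30 without A12. Of the transport genes, *Rhot2* had 0.23 (adjusted p = 0.510), with 0.15 without A12. *Trak1* had 0.15 (adjusted p = 0.706), with 0.27 without A7, 0.23 without A24, 0.10 without A26 and 0.09 without A8. With total counts only the genes just named kept their direction, and those lower under TMM moved towards 0, to −0.04 for *Immt*, −0.07 for *Chchd3*, −0.04 for *Spg7*, −0.33 for *Miga1*, −0.66 for *Bnip3* and −0.24 for *Bnip3l*. Those higher moved up, to 0.72 for *Miga2*, 0.66 for *Phb2*, 0.47 for *Rhot2* and 0.38 for *Trak1*. *Immt* was also −0.07 with the most abundant transcript. Without A7, A8 and A31, which leaves 1 control, *Spg7* was −0.13, *Miga1* −0.26, *Chchd3* −0.11 and *Immt* −0.19, closer to 0. The others moved away from 0 in the same fit, to −1.37 for *Bnip3*, −0.77 for *Bnip3l* and 0.73 for *Miga2*. *Phb2* likewise moved to 0.53, *Rhot2* to 0.38 and *Trak1* to 0.25.

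Genes of mitochondrial content gave a reference for these levels. The 10 genes of this list summed to 14896 CPM (A8), 13223 (A12) and 12750 (A7), and to between 12164 in A29 and 15658 in A24 with a HuR KO label. None of the 10 was called by edgeR's quasi-likelihood test, 1 had an unadjusted p under 0.05, against 17.0% of all genes, and limma voom, the likelihood ratio test of edgeR and the Wald test of DESeq2 also called 0. *Vdac1*, the outer membrane channel, had a log2 fold change of −0.35 (adjusted p = 0.259) and *Tfam*, which packages mitochondrial DNA, one of 0.30 (adjusted p = 0.372), and with total counts only they had −0.12 and 0.55.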

How the data were processed

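Per the labels, RNA was extracted from frozen BAT with Trizol and libraries were made with the TruSeq RNA kit. The authors deposited estimated counts per transcript, not normalized, on GRCm38. The program that wrote them, and whether strand was used, are not given in the sources used here. The methods of the study name CLC Genomics Workbench, and this program was not available here. Of 105129 transcripts, 103723 matched GENCODE M21 without their version and 99593 with it.

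Counts were summed per gene symbol and rounded. Of the sums, 79.1% were within 0.02 of a whole number before rounding. Genes passing edgeR's filterByExpr were scaled by TMM (factors 0.763 in A8 to 1.20 in A25) and compared by edgeR's quasi-likelihood F-test, adjusted by Benjamini-Hochberg over all 14851 genes. SE, the standard error, is the log2 fold change divided by the square root of F. Log2 CPM used a prior count of 2. Transcript shares were compared by two-sided exact permutation, where 56 assignments allow a smallest p of 0.0357. Intervals and floors cover counting error or the spread between libraries only. Tests were tried on simulated counts.

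The members and lists were chosen with earlier results of these data known. Named genes were *Elavl1*, the 10 members, the 2 genes with the smallest p in each other list and any past the threshold, and for the 3 most variable members the 2 genes closest to each. Alternatives were limma voom with quality weights, a muscle marker score as covariate, scaling by total counts only or by the size factors of DESeq2, other filters, the Wald test of DESeq2, the likelihood ratio test of edgeR, the most abundant transcript, no minimum fold change, and fits without single libraries, without A24 and A25, and without A7, A8 and A31. Fits without A8 and A24 and with the length trend removed by lowess, and shares without A8 and A24 or without A7, A8 and A31, were chosen after seeing the data.

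R 4.3.3, edgeR 4.0.16, limma 3.58.1, DESeq2 1.42.0, Python 3.11.15, numpy 2.4.6, pandas 2.3.3, scipy 1.17.1, statsmodels 0.14.6 and matplotlib 3.10.9 were used. Protein, histology and physiology were not analysed here.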

Additional observations from a re-analysis of the deposited data

Results flagged for a closer look

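In groups of 5, a library was marked when its gap to the nearest other library was a large part of the group's range (Dixon's test at the 95% level), which chance does in about 1 in 20 groups. Among 39 groups of values from libraries labelled HuR KO that were tested in this way, 4 were marked. *Mief2* had 57.8 CPM in A25, far above the other 4 libraries, and its log2 fold change without A25 was 0.19. *Miga1*, an outer membrane protein that promotes fusion, had 40.9 CPM in A24. *Spg7*, a subunit of the m-AAA protease, had 89.6 CPM in A25. *Immt*, the core of the cristae junction complex, had 712 CPM in A26, just below the lowest control. A24 and A25 were the shallowest libraries, and the part of depth in these values was not tested. The control group of 3 was too small for this test.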

How the results depend on the processing

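The count of fusion and fission genes past the threshold was 0 in every alternative run, as was the count of their transcripts, where at most 25 were called over the whole table. For transcript shares no alternative could give a call, as the smallest possible exact permutation p was 0.0571 to 0.400. The number of genes past it in the whole table was 105, and moved to 823 with DESeq2's Wald test, 655 with edgeR's likelihood ratio test, 14 with the muscle marker score as a covariate and 16 with the most abundant transcript of each gene. It was 5 without A24 and A25, 4 without A7, A8 and A31, and 10 to 190 with each library left out in turn. Chosen after seeing the data, it was 202 without A8 and A24 and 361 with the length trend removed. The number of other mitochondrial dynamics genes past the threshold moved from 0 to 1 with DESeq2's Wald test, with the likelihood ratio test and with the length trend removed, and was 0 to 1 with each library left out, the gene being *Inf2* each time.

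The median log2 fold change of the 10 genes was −0.12, 0.10 with total counts only, and −0.12 to −0.066 with each library left out. With total counts only, the log2 fold change turned to 0.078 for *Mfn1*, 0.077 for *Mfn2*, 0.059 for *Opa1* and 0.11 for *Oma1*. It turned to 0.0024 for *Yme1l1*, 0.067 for *Dnm1l*, 0.27 for *Fis1*, 0.20 for *Mff* and 0.19 for *Mief1*. This scaling also raised the median of all genes. *Fis1* was also 0.46 without A7, A8 and A31, 0.25 without A8 and A24, 0.13 with limma voom, 0.21 with the muscle score and 0.070 with the most abundant transcript. *Mff* was 0.00032 without A8 and A24 and 0.10 with the most abundant transcript, and *Mief1* was 0.010 with the length trend removed. With each library left out, *Dnm1l* ranged from −0.26 to 0.036, *Fis1* from −0.19 to 0.35, *Mff* from −0.16 to 0.071 and *Mief1* from −0.11 to 0.022. The cause of these turns was not tested.

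Differences in transcript share, in percentage points, ranged with each library left out from −2.40 to 8.80 for *Mfn1-201*, −5.58 to 2.08 for *Mfn1-202*, −8.85 to 0.0551 for *Opa1-206*, −2.52 to 3.36 for *Opa1-207*, −3.95 to 1.33 for *Dnm1l-201* and −3.52 to 0.304 for *Dnm1l-203*. Without A24 and A25 they turned to −4.21 for *Mfn1-201*, 4.52 for *Mfn1-202* and 2.01 for *Opa1-207*. Chosen after seeing the data, *Opa1-207* was 1.09 without A8 and A24, and *Dnm1l-203* 0.471 without A7, A8 and A31. The cause was not tested.

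Of 525 log2 fold changes recomputed, 498 kept their direction and side of the threshold, 23 turned and 4, all of *Inf2*, moved past the threshold. Of 154 differences in share, 141 kept their direction and 13 turned. A fit without A7, A8 and A31 rests on 1 control, assumed to vary like the other libraries. With 3 controls and TMM scaling, the 95% intervals of the 10 genes reached 0.32 to 0.52 to either side on the log2 scale. These intervals are before adjustment over all genes, and A24 and A25 hold the fewest counts.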
